A study of Homo sapiens with 11 samples.

Results

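The comparison described here is that of Reh cells given miR-99a and miR-100 together with Reh cells given a scrambled oligo. Arrays were taken by their labels alone: 3 arrays of the combination and 2 of the scrambled control, which is 5 of the 11 arrays in the series. Reh is an established line of B-cell precursor leukaemia that carries the ETV6-RUNX1 fusion gene. The study asked how these microRNAs, with miR-125b, bear on resistance to the microtubule drug vincristine. All 11 arrays are of cells that had been infected with a lentiviral vector for miR-125b marked by eGFP, so the control carries that microRNA too, and no array of cells without it is part of the comparison. With Lipofectamine, control cells received 66 µM of scrambled precursor oligo. Combination cells received 33 µM of each precursor, so the total was the same and the dose of each microRNA was lower than with 1 oligo alone. Fresh oligo was added after 72 h and cells were harvested 48 h later, without vincristine as far as the labels say. The remaining 6 arrays are of miR-99a alone and miR-100 alone, 3 each, at 66 µM.

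MicroRNAs guide Argonaute proteins to messenger RNAs that pair with their seed, near the 5′ end, and the bound messenger is translated less and often degraded sooner. The miR-99 family is a small one whose reported targets include the kinase mTOR, its partner Raptor, the IGF1 receptor, the glucocorticoid receptor co-chaperone FKBP5 and the chromatin remodeller SMARCA5. In the genome miR-99a and miR-100 lie beside genes of the let-7 and miR-125 families. The mature sequences of the transfected pair and of the stably expressed microRNA are shown because they say what the cells were given. They are RefSeq sequences on GRCh38.p14, written 5′ to 3′, with the seed (bases 2 to 8) in capitals.

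hsa-miR-99a-5p, chr21:16539101-16539122, plus strand: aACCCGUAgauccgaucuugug
hsa-miR-100-5p, chr11:122152275-122152296, minus strand: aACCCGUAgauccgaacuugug
hsa-miR-125b-5p, chr11:122099809-122099830, minus strand: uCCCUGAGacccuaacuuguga

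Each is 22 bases long. The transfected microRNAs have the same seed and differ at 1 base, U16A, counted from the 5′ end of miR-99a. The seed of miR-125b is a different one. The arrays do not measure mature microRNAs, so uptake of the oligos was not checked by these data. Transcripts of the genes that host them say nothing of transfected oligo: MIR99AHG read 6.20 and 6.21 in control and 6.29, 5.99 and 6.11 with both oligos, and MIR100HG read 4.91 and 5.03 against 4.82, 4.73 and 4.94.

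Values are log2 expression on Affymetrix arrays, and 19775 genes were compared, each by 1 probe set. The B-lineage label was set against its markers. In control, the immature lymphocyte polymerase gene DNTT stood at 13.09, the surrogate light chain gene IGLL1 at 12.26, the B-lineage factor genes EBF1 and PAX5 at 12.02 and 11.58, and the recombinase gene RAG1 at 11.28, while VPREB1, another surrogate light chain gene, stood at 5.5. Over all arrays the T and NK markers lay between 5.41 and 7.48, the myeloid ones between 5.23 and 7.57, the erythroid and platelet ones between 4.95 and 6.63 and the fibroblast and epithelial ones between 5.07 and 7.07, against a median gene at 6.40. These ranges are of the listed markers only. ANPEP, which encodes the surface antigen CD13, is not in the myeloid list and was bright, as given below. Because affinity varies from probe set to probe set, the values do not rank these genes. In bulk RNA, fewer cells of a kind and less RNA per cell cannot be told apart.

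Replicate 3 stood apart. Over all genes, combination replicates 1 and 2 correlated at 0.9974 with each other, and combination replicate 3 correlated with them at 0.9911 to 0.9924. Combination replicate 3 correlated at 0.9977 to 0.9979 with the replicate 3 arrays of the single oligos. There is no control array numbered 3, so the difference of combination replicate 3 from control holds the difference between the replicates as well, and these cannot be told apart. The labels do not say whether arrays of a group came from separate cultures, so the spread behind the p-values may be technical. That spread is taken over all groups in a fit, single oligos included, and moderated across genes. For a gene with uneven arrays it can be smaller than the spread of the arrays compared.

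Fitted over all 11 arrays, no gene differed between combination and control past the threshold. With limma and Benjamini-Hochberg adjustment, 0 of 19775 genes (0%) passed an adjusted p of 0.05, and 724 genes (3.66%) had an unadjusted p under 0.05. All 3 combination arrays lay above both control arrays for 9.11% of genes and below both for 11.4%. The result depends on how replicate 3 is treated: with a separate shift for all arrays of replicate 3 as a term in the fit, 443 genes passed, 160 higher and 283 lower. The genes described next are those with the smallest unadjusted p in each direction. None passed in the fit without that term.

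PPFIBP1, which encodes the scaffold protein liprin beta 1, read 7.51 and 7.58 in control and 7.07, 7.11 and 6.99 with both oligos. Every combination array was below every control array, replicate 3 included, and the difference was -0.49 ± 0.09 (log2, SE, n = 3 against 2), although 3 of its 5 probe sets were lower over replicates 1 and 2. In combination replicate 3 it was also below both single-oligo arrays of that number, at 7.26 and 7.44. ACTL6A, an actin-like subunit of the BAF and INO80 chromatin remodelling complexes, read 10.01 and 10.08 in control and 9.62, 9.67 and 9.78 with both oligos, a difference of -0.36 ± 0.07. FBXO5 encodes EMI1, the inhibitor of the anaphase-promoting complex. It read 10.20 and 10.28 in control and 9.97, 9.89 and 9.91 with both oligos, a difference of -0.32 ± 0.07, although only 1 of its 2 probe sets was lower. The remaining genes of this kind had the same arrangement, with all combination arrays below control: the cap methyltransferase gene CMTR2 (-0.36 ± 0.08), the membrane protein gene EMP1 (-0.49 ± 0.11), the zinc finger gene ZNF354B (-0.36 ± 0.08), the centriole protein gene CEP97 (-0.42 ± 0.10) and the ribosomal stalk gene RPLP2 (-0.35 ± 0.08). EMP1, ZNF354B and RPLP2 were dim here, at levels of 6.14, 6.39 and 5.84, below the median gene at 6.40. With the replicate 3 term all 8 passed, from PPFIBP1 (limma adjusted p = 0.0167) and ACTL6A (0.0214) to FBXO5 (0.0404).

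Upward, the kinase gene PTK2B, which encodes the focal adhesion kinase relative PYK2, read 7.16 and 7.26 in control and 7.50, 7.45 and 7.49 with both oligos (0.27 ± 0.06). The arrays did not overlap, and the single-oligo arrays of replicate 3 read 7.50 and 7.43, close to the combination arrays. YBX1, which encodes a cold-shock RNA-binding protein, read 12.99 and 13.05 in control and 13.42, 13.40 and 13.17 with both oligos (0.32 ± 0.08). The other genes of this group, ENAM, LACC1, DIRC1, WFIKKN2, SIX3 and ZNF831, read no higher than 6.07 on any array of either group, close to the dimmest values of the table, with differences of 0.25 to 0.34. With the replicate 3 term YBX1, ENAM, LACC1, DIRC1 and SIX3 passed, and PTK2B (adjusted p = 0.0709), WFIKKN2 and ZNF831 did not.

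Without replicate 3 the picture was different. Over the 8 arrays of replicates 1 and 2, limma called 290 genes (1.47%) at an adjusted p under 0.05, of which 182 (0.92%) rose and 108 (0.546%) fell. Changes were small: the rises were 0.32 to 0.72 on the log2 scale and the falls had sizes of 0.31 to 0.55. These calls rest on few arrays. Leaving out combination replicate 1, combination replicate 2 or control replicate 1 left 0 genes called (2102, 3279 and 1895 genes at an unadjusted p under 0.05), and leaving out control replicate 2 left 382. The calls also moved with the normalization: 142 genes were called after quantile normalization (124 higher, 0.627%, and 18 lower, 0.091%) and 268 after cyclic loess (224 higher, 1.13%, and 44 lower, 0.223%). With only the 2 groups compared in the fit, 188 were called. With the mean of all probe sets of a gene in place of the brightest, 27 were called, 21 higher and 6 lower. Of the 61 called genes named by rule, 5 were still called then: ACTL6A, CHCHD10, JUNB, MPLKIP and PPDPF.

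The largest fall was that of EMP1, a tetraspan membrane protein gene. It read 6.43 and 6.34 in control and 5.80 and 5.88 in combination replicates 1 and 2, a 1.46-fold fall (log2 -0.55 ± 0.08, SE, n = 2 against 2, limma adjusted p = 0.0121). Replicate 3, at 6.01, was below both controls too and lay between the single-oligo arrays of its number, at 5.93 and 6.23. EMP1 has 6 probe sets, none at a level of 7 or more, and 3 of them were lower, with differences from -0.55 to 0.09. With the mean of all of them the difference was -0.09 (adjusted p = 0.503). At this level a gene is near the floor of the array, and the dim probe sets do not give 1 answer.

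RECQL, a DNA helicase of the RecQ family, fell as well. It read 9.68 and 9.67 in control and 9.18 and 9.22 with both oligos in replicates 1 and 2 (-0.48 ± 0.08, adjusted p = 0.0121), and all 4 of its probe sets were lower. Replicate 3 read 9.59, below control by less than replicates 1 and 2, yet the single-oligo arrays of replicate 3 read 9.93 and 9.84. UTP15, a part of the machine that processes the small ribosomal subunit's RNA, read 7.49 and 7.53 against 7.04 and 7.06 (-0.46 ± 0.09, adjusted p = 0.0147). Its replicate 3 array read 7.17, below both controls and below the single-oligo arrays at 7.59 and 7.47. PPHLN1, the periphilin subunit of the HUSH silencing complex, read 10.44 and 10.56 against 9.93 and 10.20 (-0.44 ± 0.09, adjusted p = 0.0216). Its replicate 3 array, at 10.19, was below both controls and below the single-oligo arrays at 10.38 and 10.51, and its 3 probe sets at a level of 7 or more were all lower.

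In all, 15 of the 108 falls were called under the deposited, the quantile and the loess values alike. For 12 of these, replicate 3 lay below both controls: ACTL6A, DDX60, DNAH3, EMP1, PPFIBP1, PPHLN1, PSMB7, RECQL, RPLP2, SOD2, UTP15 and ZNF354B. Among them, DNAH3, EMP1, RPLP2, SOD2 and ZNF354B were dim, at levels of 6.93, 6.14, 5.84, 6.2 and 6.39. For 9 of the 15, replicate 3 was also below both single-oligo arrays of its number. Over all genes, replicate 3 lay below both controls for 38.1% and below both single-oligo arrays for 39.5%. At a level of 8 to 11 these shares were 54.9% and 60.1%, but many of the 15 lie outside that range, the dim ones among them. Whether the 9 of 15 stand apart from genes of their own levels was not tested. Where the values of replicate 3 were not below control, they were at the level of control: PHB1, the prohibitin gene, read 10.14 and 10.18 in control, 9.65 and 9.82 in combination replicates 1 and 2, and 10.22 in replicate 3. PUS7, a pseudouridine synthase gene, read 8.81 and 8.80, then 8.33 and 8.45, then 8.82. POLR2B, the second-largest subunit of RNA polymerase II, read 11.41 and 11.48, then 11.03 and 11.17, then 11.44. SOD2, the mitochondrial superoxide dismutase gene, and DNAH3, an axonemal dynein heavy chain gene, read 6 to 7.26 on the control arrays and in replicates 1 and 2, with falls of -0.44 ± 0.09 and -0.43 ± 0.09, and in both, combination replicate 3 lay between the single-oligo arrays of its number. DDX60, PHB1, PUS7 and POLR2B are named here after their values were seen.

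Other large falls were called on the deposited values and lost after quantile normalization. TWF1, which encodes the actin monomer-binding protein twinfilin, fell by 0.47 ± 0.10 (adjusted p = 0.0209, and 0.0905 after quantile normalization), with 2 of its 5 probe sets lower. FAM111B, a protease gene, read 9.57 and 9.32 against 8.96 and 9.05, but 9.52 in replicate 3 (adjusted p = 0.0314, then 0.11). POLK, the translesion DNA polymerase kappa gene, read 8.69 and 8.68 against 8.21 and 8.29, and 8.50 in replicate 3 (adjusted p = 0.0171, then 0.0651). DHX40, a helicase gene, fell by 0.43 ± 0.08 (adjusted p = 0.0169, then 0.0503), and its replicate 3 array, at 9.58, was at the level of the higher control. For FBXO5 the change over replicates 1 and 2 was -0.32 ± 0.08 (adjusted p = 0.0476), and it was 0.0955 after quantile normalization.

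**Figure D1:**
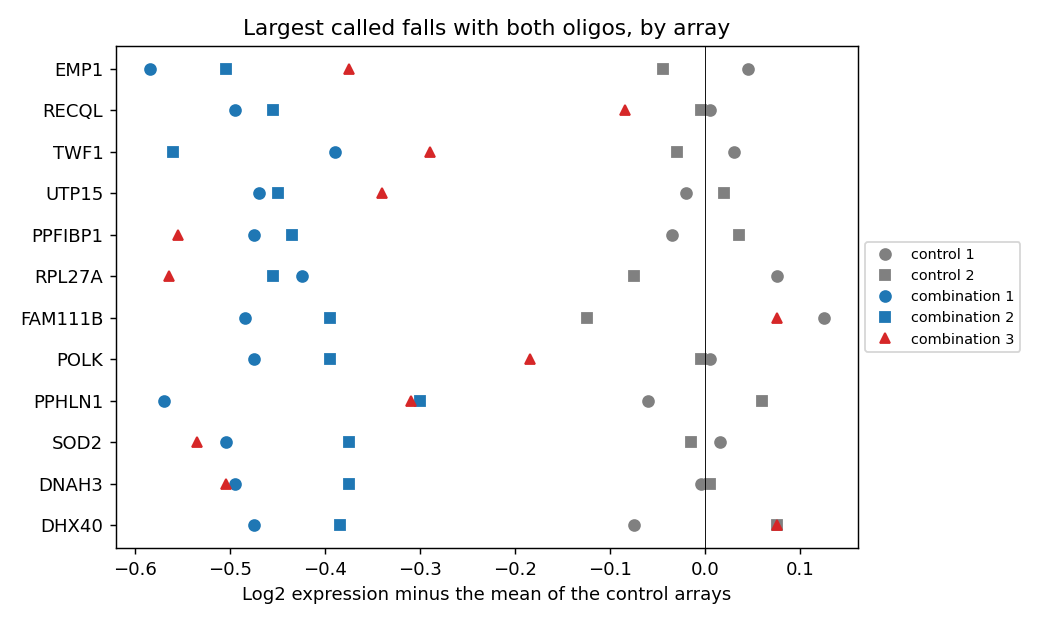
Log2 expression minus the mean of the control arrays (horizontal axis) for the 12 largest called falls, 1 gene per row, 1 point per array. Grey points are the control arrays, blue points combination replicates 1 and 2, and red triangles combination replicate 3; EMP1 fell by 0.55 over replicates 1 and 2, and replicate 3 lies near control for FAM111B and DHX40.

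Among the rises, JDP2, a repressor that pairs with AP-1 factors, read 8.77 and 8.91 in control and 9.31 and 9.36 in combination replicates 1 and 2 (1.41-fold, log2 0.50 ± 0.08, adjusted p = 0.0121). Replicate 3 read 8.81, between the controls. After quantile normalization and loess the rise was 0.56 and 0.57, so it did not shrink, and 1 of its 2 probe sets was at a level of 7 or more. JUNB and JUND, which encode AP-1 subunits, rose too: JUNB read 6.71 and 6.75 against 7.10 and 7.10, with 6.69 in replicate 3, and JUND read 10.32 and 10.79 against 11 and 11.03, with 10.02 in replicate 3 (adjusted p = 0.0243 and 0.0306). Of 17 AP-1 factors measured, these 3 rose (17.6%, against 0.559% of genes outside the list weighted to the same levels), none fell, and the median difference was 0.086 against -0.036 for genes of the same level. After quantile normalization the adjusted p of JUND was 0.0558.

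PPDPF, a gene named for pancreatic progenitor differentiation, read 8.22 and 8.36 in control and 8.81 and 8.84 in replicates 1 and 2 (0.54 ± 0.08, adjusted p = 0.0121). Replicate 3, at 8.17, was below both controls. CHCHD10, a protein of the mitochondrial intermembrane space, read 9.53 and 9.60 against 10.12 and 10.05 (0.53 ± 0.09, adjusted p = 0.0121), and 9.26 in replicate 3. The stress-responsive factor gene ATF5 read 11.65 and 11.74 against 12.17 and 12.21 (0.50 ± 0.08, adjusted p = 0.0121), and 11.57 in replicate 3. In each of these the rise in replicates 1 and 2 was larger than the gap between the controls, and replicate 3 lay on the other side of control.

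The same held for HCFC1R1, a regulator of host cell factor, which rose by 0.49 ± 0.09, for KDELR1, the receptor that returns proteins to the endoplasmic reticulum (0.48 ± 0.08), for MPLKIP, a PLK1-interacting protein gene (0.51 ± 0.09), and for GNG11, a G protein gamma subunit gene (0.49 ± 0.11). Over replicates 1 and 2 the rises of these 4 passed under quantile and loess values as well. GNG11 shows the reach of replicate 3: it read 9.56 and 9.84 in control, 10.15 and 10.22 in replicates 1 and 2, and 9.19 in replicate 3. With replicate 3 in the fit its difference was 0.15 ± 0.33.

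PPP3R1, the regulatory subunit gene of the phosphatase calcineurin, had the largest rise and the least even arrays. It read 7.38 and 8.09 in control, and 8.70 and 8.21 with both oligos (1.65-fold, log2 0.72 ± 0.17, adjusted p = 0.0381). The higher control lay close to the lower combination array, and replicate 3 read 7.67, between the controls. IGFBP2, which encodes a binding protein for insulin-like growth factors, read 9.90 and 10.46 against 10.69 and 10.72, and 9.89 in replicate 3 (adjusted p = 0.0426). After quantile normalization the adjusted p of PPP3R1 was 0.0784 and that of IGFBP2 was 0.0675. ZFAS1, a small nucleolar RNA host gene, rose by 0.53 ± 0.09, and its adjusted p went from 0.0124 to 0.0566.

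**Figure D2:**
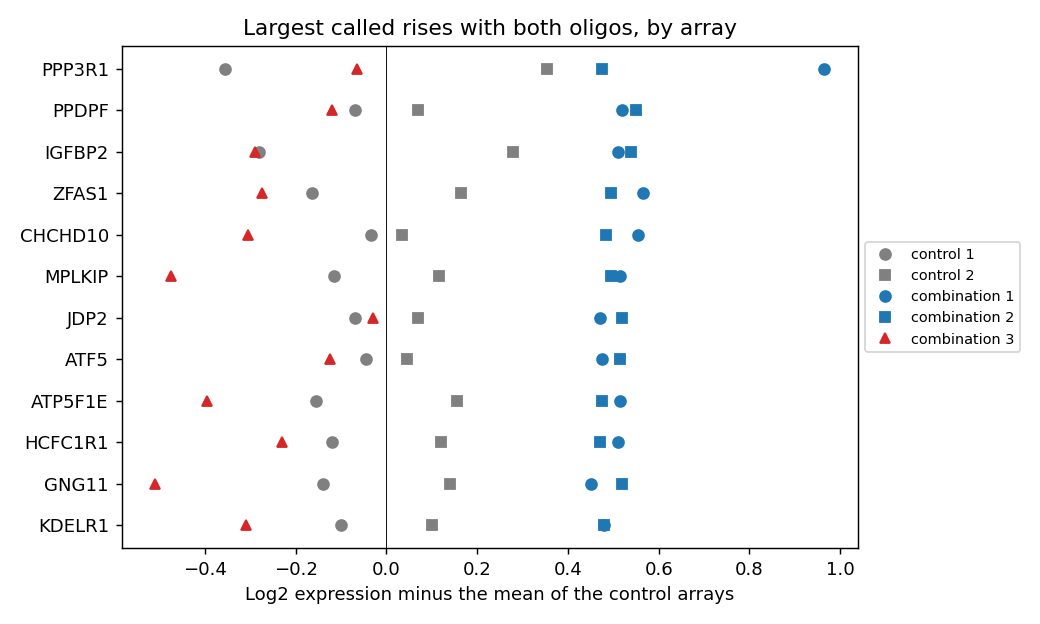
Log2 expression minus the mean of the control arrays (horizontal axis) for the 12 largest called rises, 1 gene per row, 1 point per array, with control arrays in grey, combination replicates 1 and 2 in blue and combination replicate 3 as red triangles. The blue points lie to the right of both controls in every row and replicate 3 does not, as for GNG11 at 9.19 against 9.56 and 9.84 in control.

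The rises and falls were not spread evenly over the range of expression. Over replicates 1 and 2, the median difference was -0.081 for the 2409 genes at a level of 8 to 9, -0.090 for the 1606 at 9 to 10, 0.055 for the 437 at 11 to 12, 0.140 for the 155 at 12 to 13 and 0.299 for the 95 at 13 or more. Of those 95, 43 (45.3%) were called higher and 0 lower, against 1.04% called higher at a level of 8 to 9. The brightest probe set of the whole array read 14.839 and 14.801 in combination replicates 1 and 2, and 14.386 and 14.371 in control. The shift at high level was much smaller after normalization, with medians of 0.009 (quantile) and 0.095 (loess) among the 95 brightest genes. Combination replicate 3 was shifted another way, with medians of -0.200 at a level of 10 to 11, -0.246 at 11 to 12 and -0.072 at 13 or more, and its brightest probe set read 14.450. The part that this level-dependent shift has in any 1 gene's change was not tested.

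**Figure D3:**
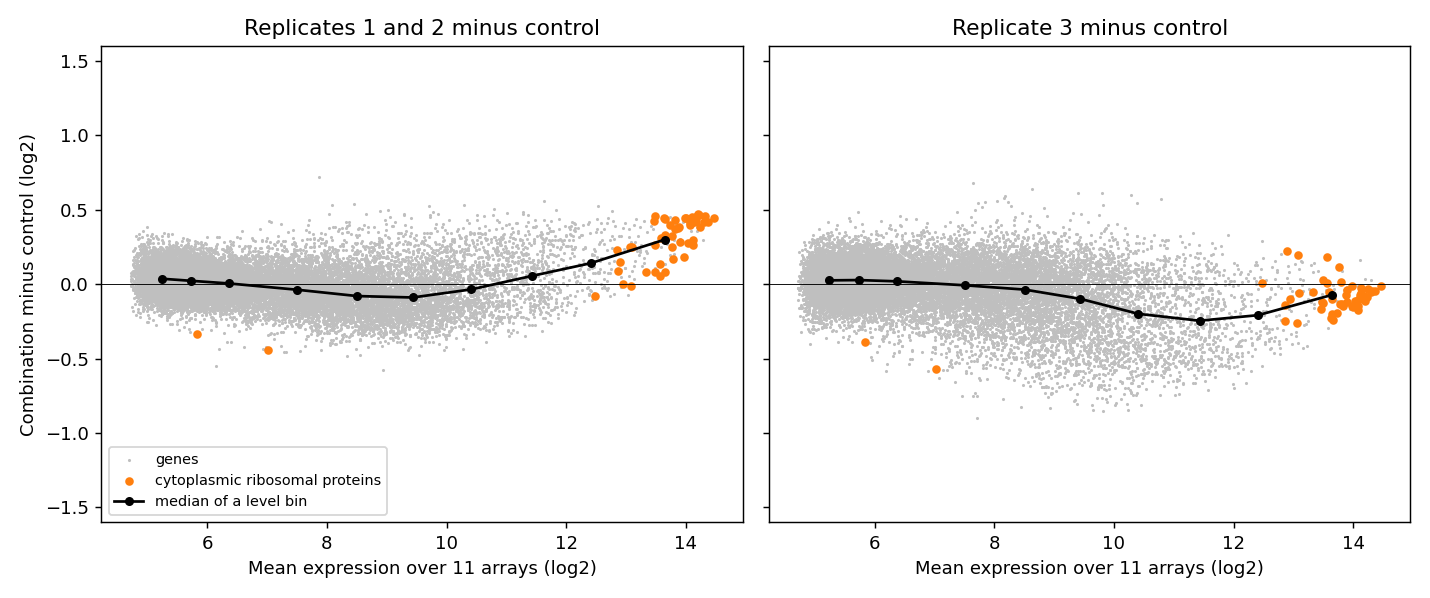
Combination minus control (log2, vertical axis) against mean expression over all 11 arrays (log2, horizontal axis) for 19775 genes, with replicates 1 and 2 on the left and replicate 3 on the right. Black points join the medians of level bins and orange points are ribosomal protein genes; on the left the black line climbs to 0.299 in the highest bin, and on the right it falls to -0.246 at a level of 11 to 12.

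Ribosomal protein genes make up much of that bright end. Of 52 cytoplasmic ribosomal protein genes measured, 28 rose over replicates 1 and 2 (53.8%), 2 fell (3.85%), and the median difference was 0.352. Genes outside the list, weighted to the same levels, had a median of 0.263, with 27.7% called higher and 0.0104% lower. RPL31 read 14.06 and 14.21 in control and 14.63 and 14.58 with both oligos (0.47 ± 0.08, adjusted p = 0.0121). Its replicate 3 array read 14.02. RPL37A, RPS15A and RPS27 had rises of 0.46 ± 0.08 with the same adjusted p, and in each replicate 3 was below both controls. None of the 28 was called after quantile normalization or loess: RPL31 then differed by 0.06 (adjusted p = 0.772) and 0.21 (adjusted p = 0.178). The median over the list was 0.029 after quantile normalization and 0.119 after loess. The genes that fell were RPL27A (-0.44 ± 0.10, adjusted p = 0.0315) and RPLP2 (-0.34 ± 0.08, adjusted p = 0.0384). They are represented by dim probe sets, at a level under 12 (5.84 for RPLP2), where the other 50 members are at 12 or more.

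For those 50 members, the median difference from the mean of the controls was 0.367 and 0.372 in combination replicates 1 and 2 and -0.093 in replicate 3. The single-oligo arrays of replicates 1 and 2 read 0.018 and 0.006 (miR-99a) and 0.117 and 0.053 (miR-100), so combination replicates 1 and 2 stood above them as well as above control. The other 199 genes at a level of 12 or more, which encode no ribosomal protein, had 41 called higher and a median of 0.198. Of these, 164 lay above control. At a level of 13 or more, the 49 genes that encode no ribosomal protein had a median of 0.260 and 28.6% called higher.

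Messenger RNAs of ribosomal proteins begin with a terminal oligopyrimidine tract, a C followed by pyrimidines, through which mTOR and LARP1 control their translation. The promoter windows of RefSeq (GRCh38.p14) were searched on the gene's own strand for a C at the annotated start followed by 4 bases that are each C or T. The tract was at the start in 4.04% of all 27305 windows, in 4.50% of 15384 measured genes with a window, in 71.7% of 46 measured ribosomal protein genes, in 24.7% of 154 genes called higher and in 5.15% of 97 called lower. Among genes called higher that encode no ribosomal protein it was in 15.4% of 130. Windows of members on the plus strand are shown from 10 bases before the start, with the first 5 transcribed bases in capitals, to let a reader see tracts and starts without one.

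RPL31, chr2:101002279-101002303: ccttcgcgctCTTCCtttccaactt
RPS12, chr6:132814559-132814583: cggatgaggcCTCTTtccctgccgc
RPL41, chr12:56116623-56116647: cttcgcctttCTCTCggccttagcg
JDP2, chr14:75427714-75427738: gtcctgctttCTCGAgcgctcctgc
PPDPF, chr20:63520731-63520755: ccgcgcatatAAGTGggcgcgtccg
EMP1, chr12:13196716-13196740: accgcccattACACAccccagtaca

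The first 3 hold the tract, and JDP2, PPDPF and EMP1 do not. An annotated start can differ from the start used in Reh cells, and ribosomal protein genes are bright on the array, so the share of tracts among genes called higher is a description.

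Nuclear genes of oxidative phosphorylation also held rises. Of 59 measured, 7 rose (11.9%, against 8.3% of genes outside the list weighted to the same levels) and 1 fell (1.69%, against 0.624%), and the median difference was 0.209 against 0.055 for genes of their level. Unlike the ribosomal protein genes, the group kept most of its shift after loess, with a median of 0.166 and 5 called higher, and 0.121 after quantile normalization with 0 called higher. The rises were mostly in complex IV, cytochrome c oxidase, with 5 of 10 subunits and a median of 0.396. These 5 are at a level of 12 or more, where other genes rose often too, as given below. COX7B read 12.48 and 12.80 in control and 13.10 and 13.07 with both oligos (0.44 ± 0.09, adjusted p = 0.0201). COX7C (0.43 ± 0.09, adjusted p = 0.0182) and COX6A1 (0.43 ± 0.09, adjusted p = 0.0165) were alike. In ATP synthase, ATP5F1E, its epsilon subunit, read 12.56 and 12.87 against 13.23 and 13.19 (0.49 ± 0.09, adjusted p = 0.0146). Complex I had 31 members with a median of 0.203, of which 0 rose and 1, NDUFA9, fell (-0.36 ± 0.09, adjusted p = 0.0485).

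All 7 rises were among the 19 members at a level of 12 or more, where other genes rose often too. At 12 to 13, 6 of 18 members rose, as did 21 of 132 other genes that encode no ribosomal protein (15.9%). Replicate 3 went far the other way: its median over the 59 genes was -0.358, with 50 below the mean of the controls, and -0.318 in complex IV. For COX7B it read 12.28, and its single-oligo arrays of the same number read 12.06 and 12.30. The 75 mitochondrial ribosomal protein genes, which serve the organelle's own translation, had 0 called and a median of -0.072 in replicates 1 and 2, close to -0.081 for their level, and -0.223 in replicate 3.

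Genes of cell division gave few calls. Of 50 genes of mitosis, the spindle and the kinetochore, 39 were below control in replicates 1 and 2 (78%, against 62.9% of genes outside the list weighted to the same levels), with a median of -0.179 against -0.081 for their level. The 2 that were called lower are 4% of the list, against 1.43% of such genes. KIF23, a kinesin of cytokinesis, read 8.76 and 8.65 against 8.36 and 8.37 (-0.34 ± 0.08, adjusted p = 0.0366). ECT2, the exchange factor that activates RhoA at the cleavage furrow, read 9.22 and 9.17 against 8.85 and 8.82 (-0.36 ± 0.09, adjusted p = 0.0413). Both calls were lost after quantile normalization (adjusted p = 0.127 and 0.158), though the median of the list stayed at -0.158. In replicate 3 the median was 0.072, and KIF23 and ECT2 read 8.81 and 9.18, above or within their controls.

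Of 44 DNA replication genes, 39 lay below control (88.6%, against 60.3% of genes outside the list weighted to the same levels), and the median was -0.152 against -0.081 for their level. Of the members, 3 fell (6.82%, against 1.27%) and 1 rose (2.27%, against 3.03%). The licensing factor gene CDC6 read 8.38 and 8.31 against 7.81 and 8.10 (-0.39 ± 0.10, adjusted p = 0.0384). PRIM2, a primase subunit gene, read 7.15 and 7.27 against 6.69 and 6.89 (-0.42 ± 0.09, adjusted p = 0.0248), and its replicate 3 array, at 6.90, stayed below both controls. RPA2, a subunit of the single-strand binding complex, fell by 0.39 ± 0.09 (adjusted p = 0.0381) while its partner RPA3 rose by 0.41 ± 0.10 (adjusted p = 0.0384). The median of the list in replicate 3 was -0.012. After quantile normalization 0 of the 44 were called.

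In the list of G1 cyclins, kinases and inhibitors, with a median of -0.039, 1 of 22 rose (4.55%). Of genes outside the list weighted to the same levels, 1.93% were called higher. The gene that rose was the cyclin D kinase gene CDK4. It read 10.88 and 11.03 in control and 11.37 and 11.35 with both oligos (0.41 ± 0.08, adjusted p = 0.0199), and 10.73 in replicate 3. The rise passed after quantile normalization (adjusted p = 0.0286) and loess (adjusted p = 0.014). Of 18 genes of EMI1 and the anaphase-promoting complex, only FBXO5 was called, and the median was -0.031 against -0.036 for the level. That call is 5.56% of the list, against 1.16% called lower among genes outside it weighted to the same levels. Replication-dependent histones (26 measured) had 0 called and a median of 0.023.

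The reported targets of the miR-99 family were not among the genes called. Of 23 measured, 0 were called in either fit, 16 (69.6%) were below control in replicates 1 and 2, and the median was -0.010 against -0.037 for genes of their level. Of genes outside the list weighted to the same levels, 57.3% were below control, 0.69% were called higher and 0.835% lower. With 23 genes, 0 calls is near those shares. FKBP5 read 11.09 and 11.03 in control and 10.89, 10.98 and 10.81 with both oligos. All combination arrays were below both controls, but the difference over replicates 1 and 2, -0.13 ± 0.09, did not pass (adjusted p = 0.54). SMARCA5, the ISWI remodeller, read 10.31 and 10.42 against 10.13, 10.08 and 10.35 (-0.25 ± 0.08 over replicates 1 and 2, adjusted p = 0.114). MTOR read 7.07 and 6.99 against 6.89, 6.92 and 7.17 (-0.12 ± 0.08, adjusted p = 0.502), so replicate 3 was above both controls. RPTOR (-0.01 ± 0.09), IGF1R (-0.01 ± 0.10), SMARCD1 (-0.02 ± 0.08), CTDSPL (-0.03 ± 0.08), TRIB2 (-0.09 ± 0.09), AGO2 (-0.01 ± 0.08) and the BMP receptor gene BMPR2 (-0.11 ± 0.08) had differences from control close to or within their standard error. BAZ2A, a partner of SMARCA5 in silencing ribosomal DNA, was 0.17 ± 0.08 (adjusted p = 0.317). NOX4, a NADPH oxidase gene with a dim probe set, was 0.23 ± 0.09 (adjusted p = 0.183).

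Of 28 genes predicted to carry seed matches, 0 were called and 19 (67.9%) were below control, with a median of -0.076 in replicates 1 and 2 (-0.036 for their level) and -0.113 in replicate 3. Of genes outside the list weighted to the same levels, 57.0% were below control, 1.01% were called higher and 0.931% lower. AP1AR, an AP-1 adaptor regulator, read 8.44 and 8.45 in control and 8.22, 8.21 and 8.15 with both oligos, and KBTBD8, a ubiquitin ligase adaptor, 6.55 and 6.66 against 6.38, 6.38 and 6.19. Both had all combination arrays below control (-0.23 ± 0.08 and -0.22 ± 0.08 over replicates 1 and 2), with adjusted p of 0.167 and 0.185. In the other direction, ZBTB7A, a transcriptional repressor, was 0.27 ± 0.08 (adjusted p = 0.0939) and passed after quantile normalization (adjusted p = 0.0483), with replicate 3 at 9.04 below the controls at 9.25 and 9.35. The lists came from general knowledge and their sites were not searched for.

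Among 35 genes of the mTOR complexes and PI3K signalling, 0 were called and the median was -0.031, near the -0.037 of their level. MAPKAP1, which encodes the mTORC2 subunit SIN1, had the smallest p and read 7.83 and 7.99 in control and 7.54, 7.65 and 7.60 with both oligos (-0.32 ± 0.09 over replicates 1 and 2, adjusted p = 0.0612). The mTORC1 activator gene RHEB was 0.30 ± 0.08 (adjusted p = 0.0738) and turned round in replicate 3, at 11.34 against controls of 11.62 and 11.79. IGFBP2 was the only called member of 14 genes of the IGF and insulin receptor axis, whose median was 0.024. That call is 7.14% of the list, against 1.17% called higher among genes outside it weighted to the same levels. Among 26 SWI/SNF and ISWI remodeller genes, ACTL6A (-0.40 ± 0.08, adjusted p = 0.0171) and the histone-fold subunit gene POLE3 (-0.35 ± 0.09, adjusted p = 0.0485) fell, and the median was -0.047 against -0.081 for the level. Those calls are 7.69% of the list, against 1.46% called lower among genes outside it weighted to the same levels. Of 15 genes of the glucocorticoid receptor and its response, 0 were called and the median was -0.063. The receptor gene NR3C1 read 9.48 and 9.53 against 9.19 and 9.34 (-0.24 ± 0.08, adjusted p = 0.142), and 9.55 in replicate 3.

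For the microRNA pathway itself, 16 of 17 genes of microRNA processing and Argonaute (94.1%) were below control in replicates 1 and 2, and 0 were called. Of genes outside the list weighted to the same levels, 57.5% were below control. The median was -0.073 against -0.037 for their level. In replicate 3, 9 of the 17 were below the mean of the controls, with a median of -0.021. Over replicates 1 and 2 the list had medians of -0.111 with miR-99a alone and -0.183 with miR-100 alone. DDX5, a helicase of the Drosha complex, read 8.04 and 8.02 in control and 7.71, 7.72 and 7.88 with both oligos (-0.32 ± 0.08 over replicates 1 and 2, adjusted p = 0.0577). The reported targets of miR-125b, which all cells carry, had a median of -0.003 over 28 genes and 0 calls. The 23 CCR4-NOT and decapping genes (-0.007) and the 18 microRNA host genes (-0.003) had 0 calls each.

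Of the genes tied to vincristine, 1 passed. Vincristine binds tubulin and is pumped out of cells by ABC transporters. ABCB1, the classic multidrug pump gene, read 6.60 and 6.68 in control and 6.84, 6.42 and 6.67 with both oligos (-0.01 ± 0.10), a range in the combination that spans the controls. ABCC1 read 8.51 and 8.57 against 8.44, 8.62 and 8.79. Of 15 ABC transporter genes 0 were called, and the median was 0.011. Of 22 tubulin and tubulin folding genes, with a median of 0.011, TBCA, a tubulin folding cofactor gene, rose (0.35 ± 0.09, adjusted p = 0.0384), and its adjusted p was 0.251 after quantile normalization. That call is 4.55% of the list, no more than the 5.35% of genes outside it weighted to the same levels. TUBB was 0.24 ± 0.08 and TUBA1B 0.20 ± 0.08, with adjusted p of 0.157 and 0.23. After quantile normalization TUBA1B was at -0.11, so its direction depends on the scaling. The microtubule destabiliser gene STMN1 read 11.18 and 11.10 against 11.05, 10.98 and 10.98 (-0.13 ± 0.09, adjusted p = 0.569). The list of stathmin and microtubule dynamics (27 genes) had 0 calls and a median of -0.043.

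The 20 genes of the BCL2 family, which set the threshold for apoptosis, had 0 calls and a median of 0.079 in replicates 1 and 2, against -0.036 for their level, and of -0.199 in replicate 3. BCL2 was 0.07 ± 0.08 and MCL1 -0.02 ± 0.09. The 22 genes of p53 and its targets had 0 calls, with a median of -0.034 in replicates 1 and 2 and -0.211 in replicate 3. CDKN1A, the p21 gene, read 9.52 and 9.61 against 9.84 and 9.92 (0.31 ± 0.09, adjusted p = 0.0827), passed after quantile normalization (adjusted p = 0.0417), and read 9.23 in replicate 3.

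Protein and RNA turnover gave few calls. Of 27 proteasome genes, 21 were below control in replicates 1 and 2 (77.8%, against 51.7% of genes outside the list weighted to the same levels) with a median of -0.131 (-0.036 for their level) and 1 fell (3.7%, against 0.956%). It was PSMB7, the subunit with trypsin-like activity, which read 11.22 and 11.22 against 10.85 and 10.89 (-0.35 ± 0.08, adjusted p = 0.0366), and 11.19 in replicate 3. With replicate 3 in the fit all 27 had a difference below 0, with a median of -0.124 and 0 called. In that fit 10241 of all 19775 genes were below 0, and the median at a level of 10 to 11 was -0.078. Over replicates 1 and 2 the list had medians of -0.124 with miR-99a alone and -0.191 with miR-100 alone. PSMD12, a lid subunit gene, read 9.96 and 9.89 in control and 9.60, 9.66 and 9.59 with both oligos. Ribosome biogenesis (37 genes) had a median of -0.144 against -0.037 for the level, with UTP15 as its only call. That is 2.7% of the list called lower, against 1.09% of genes outside it weighted to the same levels. Translation factors (40 genes) had a median of -0.126 with 1 call, the start-codon factor gene EIF1, which rose by 0.39 ± 0.08 (adjusted p = 0.0201, and 0.496 after quantile normalization). That call is 2.5% of the list, below the 9.25% called higher among genes outside it weighted to the same levels. The 22 heat shock and chaperonin genes had 0 calls and a median of -0.099, with the chaperonin subunit gene CCT6A at -0.31 ± 0.09 (adjusted p = 0.0676).

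Of 50 core splicing factor genes, 3 rose (6%, against 5.64% of genes outside the list weighted to the same levels) and 1 fell (2%, against 0.935%), and the median was -0.005. RBM42 rose by 0.43 ± 0.09 (adjusted p = 0.0201), under quantile normalization as well (adjusted p = 0.0192). SNRPE and SNRPG, which encode core proteins of the spliceosomal particles, rose by 0.41 ± 0.09 each on the deposited values and not after quantile normalization (adjusted p = 0.328 and 0.122). The splicing regulator gene SRSF10 fell by 0.33 ± 0.08 (adjusted p = 0.0468).

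Stress, inflammatory and metabolic lists held single calls. In the list of ATF4 and the unfolded protein response, CEBPB rose (0.46 ± 0.10, adjusted p = 0.0301), 1 of 33 genes, with a median of -0.016. In the NF-kB and TNF list, the p65 gene RELA read 8.28 and 8.37 against 8.69 and 8.63 (0.34 ± 0.08, adjusted p = 0.0356), 1 of 20 genes with a median of 0.040, and 8.14 in replicate 3. In the type I interferon list the antiviral synthetase gene OAS1 fell (-0.34 ± 0.08, adjusted p = 0.0438), 1 of 35 genes with a median of -0.043, and its adjusted p was 0.109 after quantile normalization. These calls are 3.03% (ATF4), 5% (NF-kB and TNF) and 2.86% (interferon) of their lists. Of genes outside each list weighted to the same levels, 2.53%, 1.62% and 0.939% were called in the same direction. Cholesterol synthesis (22 genes, median 0.008), glycolysis and hypoxia (30 genes, 0.020) and the MYC network with MYB (13 genes, 0.009) had 0 calls. So had the markers of the B lineage (26 genes, 0.070), T and NK cells (19 genes, -0.005), myeloid cells (13 genes, 0.024), erythroid cells and platelets (10 genes, 0.007) and fibroblasts and epithelium (15 genes, -0.004).

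**Figure D4:**
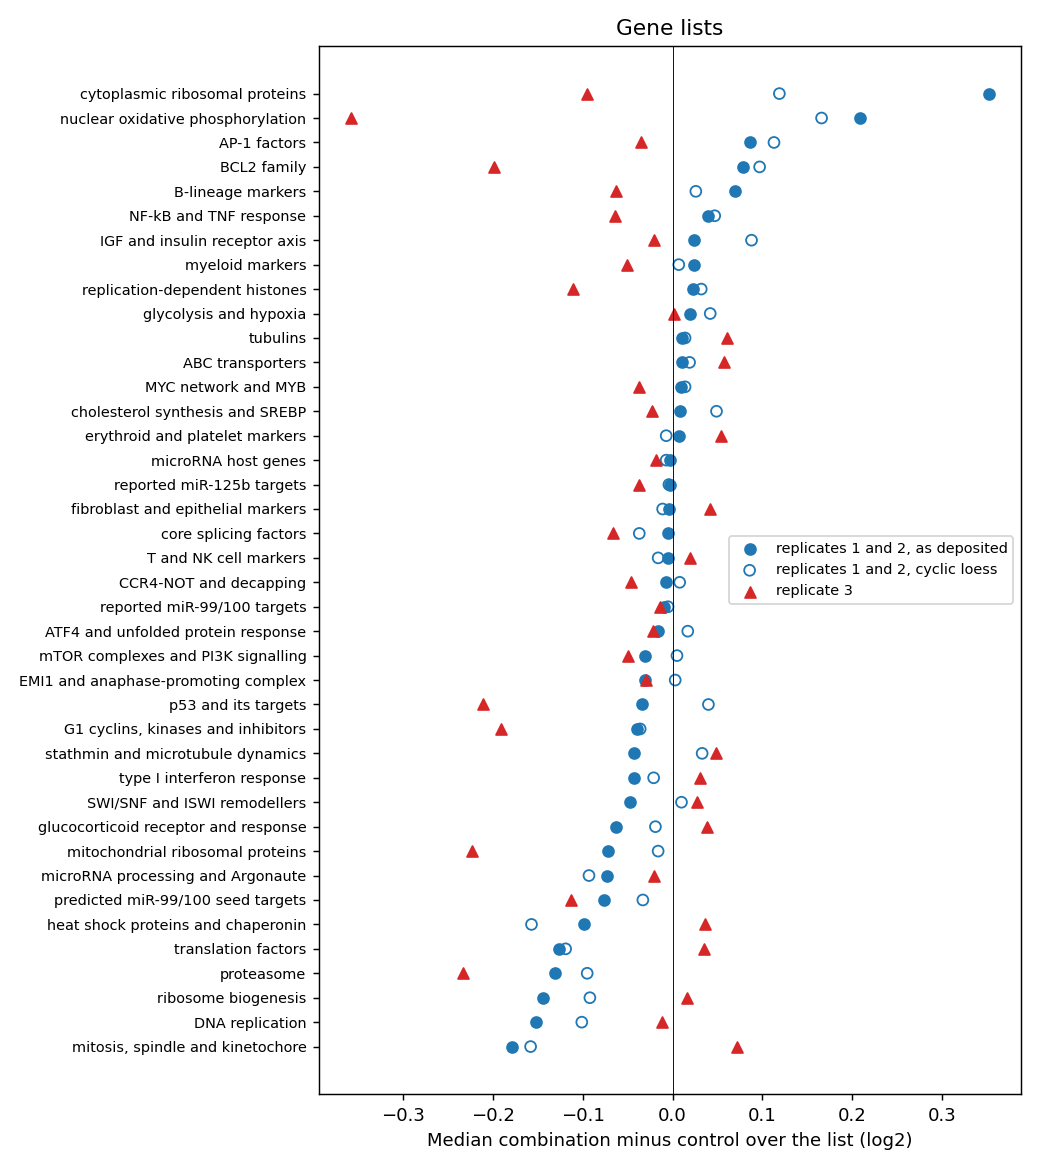
Median difference between combination and control (log2, horizontal axis) over the measured members of each of 40 gene lists, 1 list per row. Filled blue points are replicates 1 and 2 as deposited, open circles the same after cyclic loess, and red triangles replicate 3; ribosomal proteins move from 0.352 to 0.119 with loess, and oxidative phosphorylation lies at 0.209 in replicates 1 and 2 and -0.358 in replicate 3.

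Replicate 3 can be read on its own in 2 ways, against the controls and against the single-oligo arrays that carry its number. Its difference from the controls uses the same control arrays as replicates 1 and 2. The 182 genes that rose had a median of 0.395 in replicates 1 and 2 and of -0.278 in replicate 3, where 160 (87.9%) lay below both controls and 9 (4.95%) above both. Over all genes 38.1% lay below both controls and 37.4% above. The 108 genes that fell had a median of -0.365 in replicates 1 and 2 and of -0.102 in replicate 3, where 72 (66.7%) lay below both controls. Level bears on this: of the 4866 genes at a level of 8 to 11, 54.9% lay below both controls in replicate 3, and of the 83 falls at that level, 65.1% did.

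The calls did not compare the combination with the single oligos. Combination replicate 3 was below both single-oligo arrays of replicate 3 for 97 of the 108 genes that fell (89.8%), against 39.5% of all genes. At a level of 8 to 11 it was so for 92.8% of the falls and 60.1% of all genes. The median difference from those arrays at that level was -0.198 for the falls and -0.099 for all genes. For the 182 rises it was above both single-oligo arrays for 29.1%, and for 26.7% of all genes. At a level of 8 to 11 it was so for 17.4% of the 69 rises and 3.06% of all genes, and the median difference of those rises was 0.002. Below both single-oligo arrays were 14.5% of those rises, against 60.1% of all genes. So in replicate 3 at that level the falls lay lower and the rises higher than all genes. Over replicates 1 and 2, against the same controls, the single oligos mostly moved as the combination did. For miR-99a and miR-100, 108 and 108 of the 108 falls had the same direction (medians -0.2 and -0.297). So had 179 and 181 of the 182 rises (medians 0.248 and 0.181). These shares are given with no test, since the single-oligo arrays of replicates 1 and 2 entered the estimate of the spread.

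**Figure D5:**
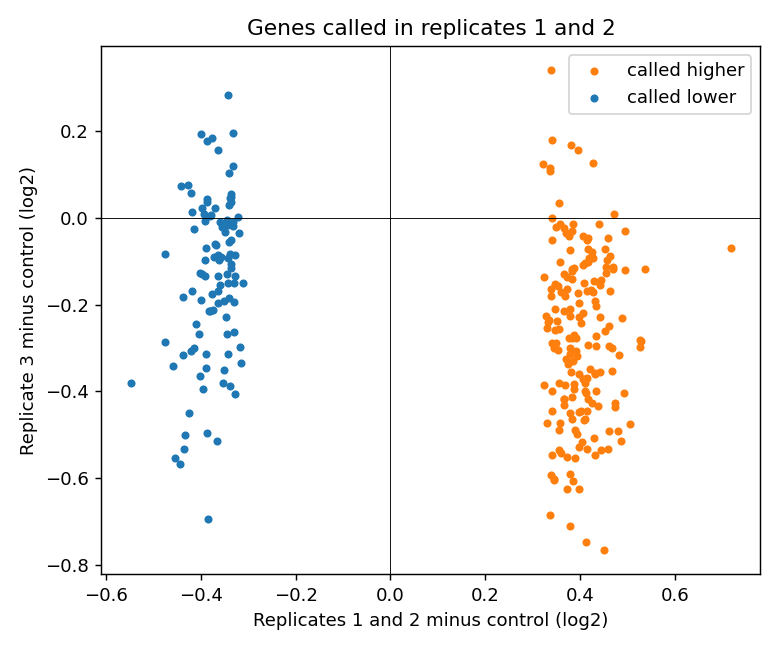
Combination minus control in replicate 3 (log2, vertical axis) against the same in replicates 1 and 2 (log2, horizontal axis) for the 290 genes called in replicates 1 and 2; both axes use the same control arrays. Orange points, called higher, have a median of -0.278 on the vertical axis, and blue points, called lower, a median of -0.102.

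Whether the combination differed from the single oligos was tested directly. Against the mean of miR-99a and miR-100 over 11 arrays, 0 genes (0%) passed and 451 (2.28%) had an unadjusted p under 0.05. The fit with the replicate number as a block is given beside it, although the arrays are not known to be paired by number. That fit called 1 gene, ANPEP, higher by 0.43 ± 0.08 (limma adjusted p = 0.0191). ANPEP encodes aminopeptidase N, the surface antigen CD13. It read 12.21, 12.02 and 11.53 in the combination, 11.34, 11.91 and 11.05 with miR-99a, and 11.33, 11.84 and 11.48 with miR-100. The combination was the highest of the 3 treatments at every number, by much in replicate 1 and by little over miR-100 in replicate 3. The control arrays read 11.25 and 11.87.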

How the data were processed

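Total RNA had been extracted with Trizol, labelled with one-cycle kits and hybridised to Affymetrix arrays, per the labels' protocols. What the authors deposited spans 4.398 to 14.839 and was taken as log2 expression for that reason. Array medians were 5.95 to 5.984. How probe sets were summarised, background-corrected and normalized is not given in the sources used here. Each of these steps can leave level-dependent differences between arrays. The number of arrays limits the precision.

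Of 54675 probe sets, 62 controls, 1801 with several genes and 11777 without a gene were left out, and 41037 of the 41091 with 1 gene matched RefSeq. Among the probe sets of a gene, the one with the largest average across the 11 arrays stood for it, and that average is the gene's level. This left 19775 genes, of which 10523 had several probe sets. A group-means model was fitted with limma 3.58.1 (lmFit, eBayes) in R 4.3.3 without a block, over 11 arrays and over the 8 of replicates 1 and 2, and p-values were 2-sided and adjusted by Benjamini-Hochberg over all genes. Errors in the text are moderated standard errors. On simulated data for the comparison over 11 arrays (19775 genes), 62% of genes changed by 0.5 (log2) and 96% changed by 1 were recovered with 7 false calls. The simulated arrays varied independently, with no shift shared by arrays of replicate 3. These shares therefore do not say how many changes the fit would find on the real arrays.

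The 40 lists, described by counts and medians beside genes of the same level, the arrays compared and the alternatives were chosen with earlier results of these data known. Named were the 12 largest called rises and falls without overlap, the 8 smallest p-values in a direction where fewer were called, up to 4 called members of a list or the 2 with the smallest p, and a set of reported targets and vincristine genes. Genes outside this are named as chosen after their values were seen, and the tract search was chosen so too. Arrays of the combination and of single oligos with the same number deviated together in 6 of 6 pairs (r 0.168 to 0.816, minimum 0.1). Pairs of different number were not set beside them, so these values do not show that the number pairs the arrays. The labels do not state it either. Alternatives were quantile normalization, a level filter, the mean of all probe sets, an intensity trend, only the groups compared, the replicate block, replicate 3 as a term and leaving out each array, with cyclic loess added after the data were seen.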

Additional observations from a re-analysis of the deposited data

Results flagged for a closer look

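ANPEP is listed because the combination differed from the mean of the single oligos in the fit with the replicate number as a block, by 0.43 (log2, limma adjusted p = 0.0191). It was the only gene of 19775 to pass there, and none passed without the block. ANPEP has 3 probe sets, and the 1 at a level of 7 or more was the only one higher than control in replicates 1 and 2. The difference between combination and control over replicates 1 and 2 was 0.56 ± 0.17 (adjusted p = 0.0888), and the control arrays differed from each other, at 11.25 and 11.87.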

How the results depend on the processing

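Over 11 arrays, 0 genes were called against control. Control and combination arrays of the same number correlated at r of -0.152 and 0.345, and the labels do not state that the number pairs them. With the replicate number as a block 863 were called (286 higher, 577 lower), and with replicate 3 as a term 443. The other alternatives, including both normalizations, the random block and leaving out each array (0 to 0), called 0, with 249 to 1494 genes at an unadjusted p under 0.05. Over replicates 1 and 2, where 290 were called, quantile normalization left 142, the mean of all probe sets 27, only the 2 groups compared 188 and the replicate block 754. The split of higher and lower calls was 182 to 108 as deposited, 124 to 18 after quantile normalization and 224 to 44 after cyclic loess. Leaving out each array gave 0 to 382. A lone array was then assumed to vary like the other groups. Against the mean of the single oligos the replicate block called 1 gene, and all other alternatives, leaving out each array included (0 to 0), called 0. Of the 61 named genes called over replicates 1 and 2, 24 were still called in the same direction after quantile normalization, 37 after cyclic loess and 5 with the mean of all probe sets, and SNRPE was the only called gene that turned direction, at -0.0574 (adjusted p = 0.809) with the mean of all probe sets. Dim genes near the floor of the arrays have compressed differences.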

Other observations

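Among called genes with more than 1 probe set at a level of 7 or more, all such probe sets lay on the side of the call for 43 of 46 falls and 52 of 76 rises. The only rise called under the deposited, quantile and loess values with replicate 3 also above both controls was GABRA2, a GABA receptor subunit gene, chosen after its values were seen. It read 4.91 and 4.83 in control and 5.20, 5.31 and 5.04 with both oligos, which is near the floor of the array. Of the genes called over replicates 1 and 2, 180 of the 182 that rose and 106 of the 108 that fell are protein coding in RefSeq.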
